A study of Homo sapiens with 6 samples.

Results

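The 40 genes described here belong to the cellular response to low oxygen and to glycolysis: 3 subunits of the hypoxia-inducible factors (HIF), 4 genes of oxygen sensing and HIF degradation, 9 HIF targets outside glycolysis, 3 glucose and lactate transporters, 15 enzymes of the glycolytic steps, 2 PFKFB regulators, 2 lactate dehydrogenase subunits and 2 pyruvate dehydrogenase kinases. They were chosen by gene symbol from a list of known members of these pathways, and all 40 were found among the 62710 rows of the deposited count table. All 40 also passed the filter on low counts, which kept 15458 genes. The counts come from RNA-seq of A549, an established human lung adenocarcinoma cell line. The treated group, called PS-MP, holds 3 libraries of A549 cells that received polystyrene microplastics for 48 h at 20 mg/mL, the dose and unit as the labels give them. The control group holds 3 libraries of untreated A549 cells. Both groups grew in DMEM with fetal bovine serum under CO2 in a humidified incubator, and the labels name no low-oxygen culture for either. Whether replicates are independent cultures is not stated, so the p-values reflect variation among these libraries only, which may be technical.

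HIF is a dimer of an oxygen-regulated alpha subunit, HIF1A or EPAS1, with the constitutive partner ARNT. In the presence of oxygen the EGLN prolyl hydroxylases modify the alpha subunit and VHL then marks it for degradation, so HIF activity is set largely at the protein level and mRNA of the subunits is only an indirect readout. When oxygen is low, HIF binds short DNA elements with the core ACGTG or GCGTG and raises genes of glucose uptake, glycolysis, lactate export, angiogenesis, pH regulation and mitophagy. Pyruvate dehydrogenase kinases inhibit pyruvate dehydrogenase and so limit the use of pyruvate in the mitochondria.

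The libraries held 17541896, 18628382 and 19119508 counts in PS-MP and 17013293, 21316451 and 20996260 counts in control, which places 3 counts at 0.137 to 0.177 CPM (counts per 1000000, with library sizes corrected for composition by the TMM method), a floor that covers counting error only. Epithelial and A549 markers were present, with 3290 to 4067 CPM of the keratin gene KRT8 in PS-MP and 3270 to 3644 CPM in control, although EPCAM was low at 1.75 to 2.43 CPM in PS-MP and 2.15 to 2.83 CPM in control. Of these 11 markers 1 was called, ALDH3A1, which was higher in PS-MP (2952 CPM, against 1947 in control, log2 fold change 0.60, edgeR's adjusted p = 0.0116). AKR1B10 and ALDH1A1 lay above every control and were not called. Among markers of other cell types, the 6 fibroblast genes summed to 10.1 to 14.2 CPM in PS-MP and 6.83 to 9.05 CPM in control. COL1A2 was at 0 in all 6 libraries, whereas DCN was called higher, with 4.17, 3.64 and 6.95 CPM in PS-MP and 2.41, 2.24 and 2.20 CPM in control (log2 fold change 1.11, edgeR's adjusted p = 0.0245). COL1A1 (2.76 CPM in PS-MP and 2.42 in control) and LUM (3.48 CPM in PS-MP and 2.40 in control) were detected and not called. The 9 alveolar type 2 genes summed to 80.5 to 83.1 CPM in PS-MP and 39.5 to 78.6 CPM in control, nearly all of it from ABCA3 (74.8 to 77.2 CPM in PS-MP and 35.7 to 74.1 CPM in control), with SFTPA1 at 0 in all 6 libraries and SFTPD above every control (2.12 CPM in PS-MP and 1.16 in control, edgeR's adjusted p = 0.0681). The 5 leukocyte genes summed to 23.8 to 36.7 CPM in PS-MP and 19.7 to 24.0 CPM in control, nearly all from CD14, with CD3E at 0 and PTPRC at most 0.116 CPM. The 4 endothelial genes summed to 0.579 to 0.955 CPM in PS-MP and 0.229 to 1.06 CPM in control. The part of these marker differences in the results below was not tested. The replicate 3 libraries of both groups stood apart along the hypoxia and glycolysis genes, and results are therefore given with and without them. They also stood apart in log2 CPM over all tested genes. PS-MP replicate 3 correlated at 0.981 to 0.984 with PS-MP replicates 1 and 2, which correlated at 0.992 with each other. Control replicate 3 correlated at 0.984 to 0.985 with controls 1 and 2, which correlated at 0.994 with each other. Because the replicate 3 libraries were set apart by values of these same genes, the adjusted p of fits without them are descriptive. Those fits also rest on fewer libraries.

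Of the 40 genes, 1 passed the test. EPAS1 was higher in PS-MP, none was lower, and the share called higher was 2.5%, against 4.91% of all tested genes called higher, 4.65% called lower and 9.56% called in either direction (edgeR's quasi-likelihood F test, adjusted p below 0.05 over 15458 genes). At an unadjusted p below 0.05 the members counted 2 higher and 4 lower (15%, against 24.0% of all tested genes). At an adjusted p below 0.05 DESeq2 called 1 higher and 1 lower (CA9), where it called 10.5% of 15727 genes. With limma-voom 1 was called higher and none lower, where it called 9.12% of 15458 genes. The 3 PS-MP libraries lay above all 3 controls for 5 genes (EPAS1, VEGFA, HK1, PFKM and LDHB) and below all 3 for 3 genes (CA9, PFKFB3 and PDK1). These are smaller shares than over all tested genes, of which 16.6% lay above and 15.4% below, 32% in all. The log2 fold change of PS-MP over control was positive for 13 genes and negative for 27, with a median of −0.13, against 0.0019 over all tested genes. The data are from bulk cells, in which fewer cells making a transcript and less of it per cell cannot be told apart.

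**Figure D1:**
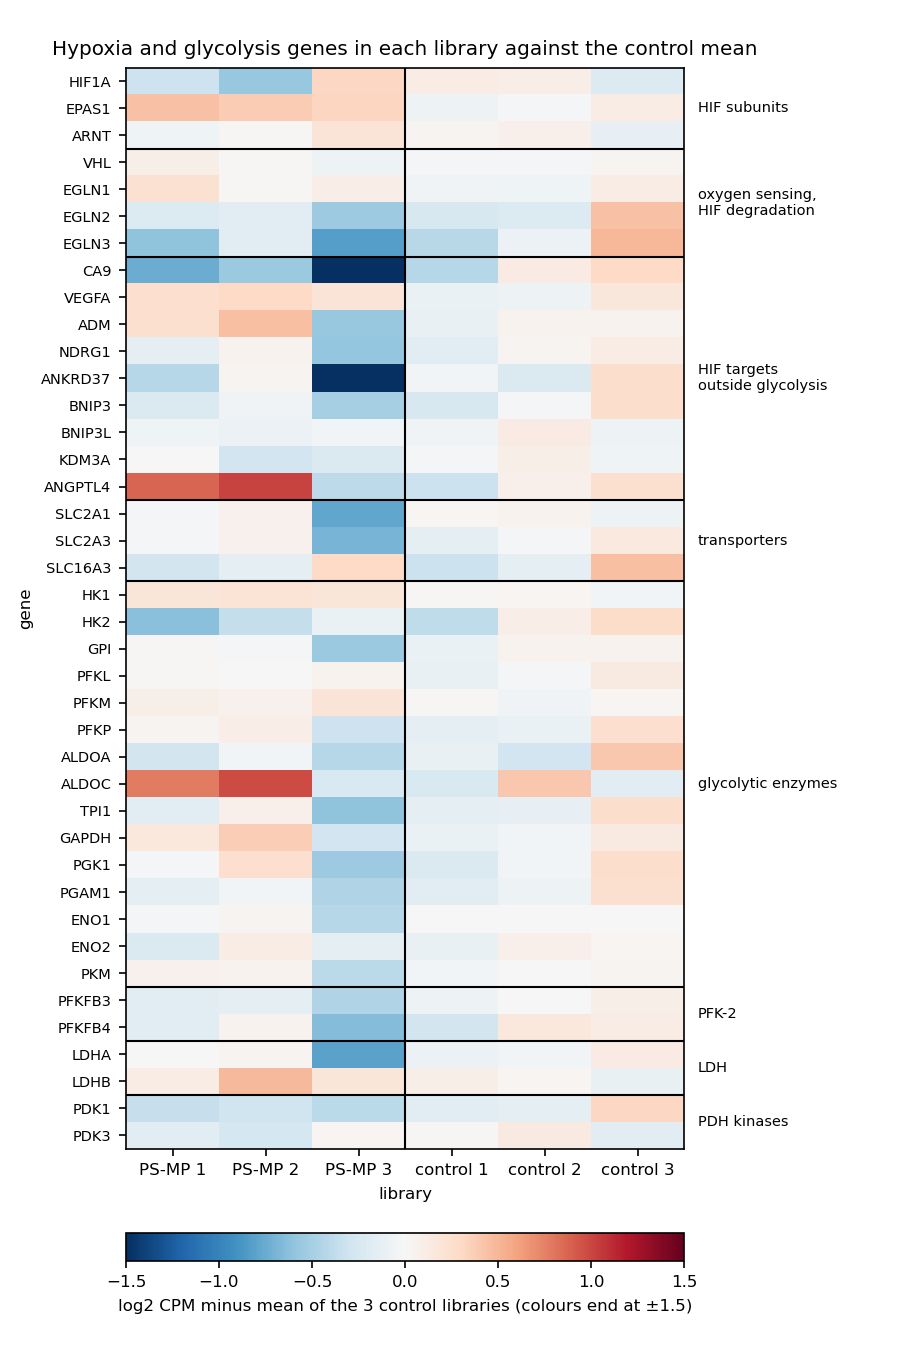
Log2 CPM of each of the 40 genes (rows, grouped by role) minus the mean of the 3 control libraries, in each of the 6 libraries (columns, PS-MP on the left), with colours ending at ±1.5. The PS-MP 3 column is blue for most genes outside the HIF subunits and the control 3 column is mostly red, while HIF1A shows the opposite colours.

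Among the HIF subunits, EPAS1 (ENSG00000116016, also called HIF2A, the alpha subunit common in endothelium and lung) had 589.6, 567 and 542 CPM in PS-MP libraries 1 to 3, against 411, 424 and 468 CPM in control libraries 1 to 3. Every PS-MP library thus exceeded every control. The gene lies on chromosome 2 at 46293667 to 46386697 of GRCh38, plus strand, as the deposited table gives it. Its log2 fold change was 0.38 ± 0.10 (SE, n = 3 libraries each; edgeR's adjusted p = 0.0343), a 1.3-fold rise. The rise had the same sign under all 16 alternative settings, with log2 fold changes of 0.32 to 0.47 and adjusted p from 0.00053 to 0.183. The call was lost in 6 of them, among them total-count scaling (edgeR's adjusted p = 0.085) and 4 fits that left out a library. Leaving out control replicate 1 gave 0.183, leaving out control replicate 2 gave 0.148, dropping PS-MP replicate 1 gave 0.143 and dropping PS-MP replicate 2 gave 0.0862.

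HIF1A (ENSG00000100644, chromosome 14 at 61695513 to 61748259), the widely expressed alpha subunit, had 721, 602 and 1109 CPM in PS-MP and 968, 957 and 777 CPM in control. The groups overlapped because PS-MP replicate 3 was the highest of all 6 libraries while PS-MP replicates 1 and 2 were the lowest. Over all libraries its log2 fold change was −0.15 ± 0.20 (edgeR's adjusted p = 0.687), and without both replicate 3 libraries it was −0.54 ± 0.09 and HIF1A was called lower (adjusted p = 0.0012). ARNT, the shared partner, had 49.2, 52.3 and 59.0 CPM in PS-MP and 53.1, 54.5 and 47.3 CPM in control, with a log2 fold change of 0.05 ± 0.11. Per length, EPAS1 made up 36.6%, 39.9% and 25.7% of the alpha subunit transcripts in PS-MP, against 23.1%, 23.8% and 29.8% in control, so that PS-MP replicate 3 fell between the controls. HIF1A remained the more abundant alpha subunit in each of the 6 libraries.

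**Figure D2:**
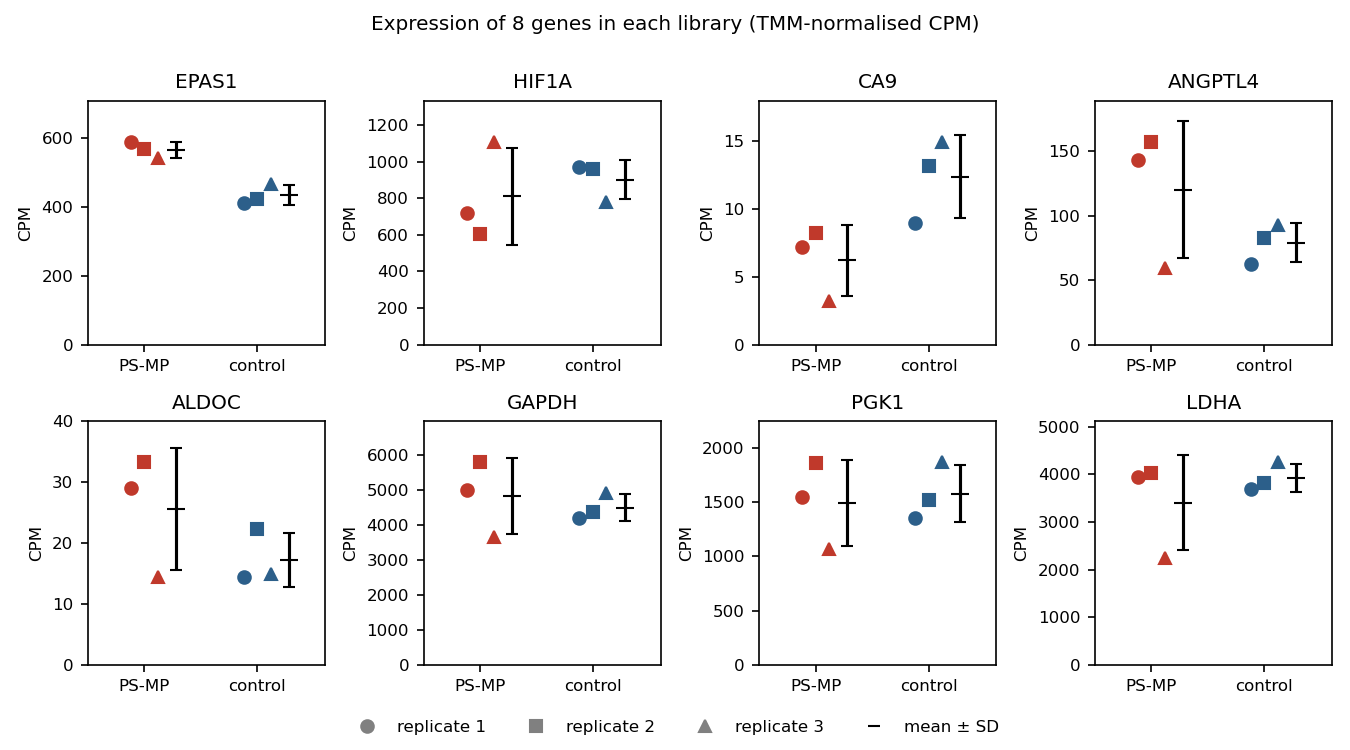
TMM-normalised CPM (linear axes starting at 0) of 8 genes in the 3 PS-MP and 3 control libraries, with one symbol per replicate number and bars for the mean ± SD. EPAS1 separates the groups, and CA9 lies below the controls in every PS-MP library. The triangle of PS-MP replicate 3 stands apart from PS-MP replicates 1 and 2 for CA9 and for the other 6 genes.

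In the oxygen-sensing group none of the 4 genes passed the test at an adjusted p of 0.05, and 1 had an unadjusted p below 0.05 with edgeR, DESeq2 and limma-voom alike (25%, near the 24.0% of all tested genes with edgeR). That gene was EGLN3, a prolyl hydroxylase that is itself a HIF target, with 24.4, 32.9 and 20.9 CPM in PS-MP and 27.7, 35.1 and 52.6 CPM in control. Its log2 fold change was −0.56 ± 0.23 (unadjusted p = 0.0305, edgeR's adjusted p = 0.155) over all libraries and −0.14 without both replicate 3 libraries. Of 16 alternatives 1 called EGLN3 lower, the fit with no filter (−0.57, edgeR's adjusted p = 0.00136). VHL, the substrate receptor of the ubiquitin ligase that degrades HIF alpha, averaged 46.3 ± 2.61 CPM in PS-MP and 46.0 ± 1.05 CPM in control (SD, n = 3 each). The hydroxylases EGLN1 and EGLN2 were low, at 5.77 ± 0.44 CPM in PS-MP and 5.31 ± 0.36 CPM in control for EGLN1, and at 5.60 ± 0.76 CPM in PS-MP and 7.09 ± 2.04 CPM in control for EGLN2. EGLN2 shares 30.6% of its exonic bases with the readthrough gene RAB4B-EGLN2 on the same strand, and EGLN1 overlaps a same-strand gene, so both levels are uncertain.

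Of the 9 HIF targets outside glycolysis, none passed edgeR's test at an adjusted p of 0.05, 1 was higher (VEGFA) and 1 lower (CA9) at an unadjusted p below 0.05 (22.2%, near the same 24.0%), and DESeq2 called CA9 lower. CA9, a membrane carbonic anhydrase that regulates pH and is among the most hypoxia-responsive genes known, had 7.18, 8.24 and 3.24 CPM in PS-MP and 9.01, 13.2 and 15.0 CPM in control. All 3 PS-MP libraries lay below all 3 controls. The means were 6.22 ± 2.64 CPM in PS-MP and 12.4 ± 3.07 CPM in control (SD, n = 3 each), with a log2 fold change of −1.004 ± 0.30 (edgeR's adjusted p = 0.0624). The 16 alternatives kept this direction with log2 fold changes of −1.27 to −0.55, and 4 of them called CA9, among them DESeq2 (adjusted p = 0.0106) and the fit without both replicate 3 libraries (edgeR's adjusted p = 0.0406). Their adjusted p ran from 4.73e-06, in the fit with no filter, to 0.182. The remaining call, with total-count scaling, had an adjusted p of 0.0484 with edgeR.

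CA9 shares 38.5% of its exonic bases with ARHGEF39 on the opposite strand, a neighbour that encodes a guanine nucleotide exchange factor. ARHGEF39 had 66, 83 and 55 counts in PS-MP and 200, 259 and 401 counts in control. It was called lower in PS-MP with a log2 fold change of −1.89 ± 0.23 (edgeR's adjusted p = 0.000561). CA9 itself had 124, 147 and 61 counts in PS-MP and 153, 289 and 327 counts in control, and both genes were lowest in PS-MP replicate 3 and highest in control replicate 3. Because the strand setting of the counting is not given in the sources used here, reads from CA9 and from ARHGEF39 cannot be told apart in the shared bases.

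ANGPTL4, a secreted inhibitor of lipoprotein lipase, had the largest positive log2 fold change of the 40 genes. It had 144, 158 and 59.3 CPM in PS-MP and 62.4, 82.5 and 92.6 CPM in control. PS-MP replicates 1 and 2 lay above every control and PS-MP replicate 3 below every control. Over all 6 libraries the log2 fold change was 0.60 ± 0.29 (edgeR's adjusted p = 0.239). Without PS-MP replicate 3 it was 0.93 (adjusted p = 0.00564), and without both replicate 3 libraries 1.05 ± 0.11 (adjusted p = 4.16e-05). ANGPTL4 is also known as a target of lipid-sensing nuclear receptors.

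VEGFA, the main angiogenic growth factor, had 63.0, 65.6 and 60.5 CPM in PS-MP and 49.7, 50.3 and 59.8 CPM in control. The groups did not overlap, although PS-MP replicate 3 lay close to control replicate 3. Its log2 fold change was 0.24 ± 0.11 (edgeR's adjusted p = 0.202), and VEGFA was called higher without both replicate 3 libraries (0.36 ± 0.07, adjusted p = 0.00376). The vasodilator peptide gene ADM had 37.2, 42.8 and 21.1 CPM in PS-MP and 29, 32.6 and 32.6 CPM in control, again with PS-MP replicate 3 lowest, and was called higher only in the fit without both replicate 3 libraries (0.37 ± 0.10, adjusted p = 0.0153).

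The stress-response gene NDRG1 had 137, 157 and 101 CPM in PS-MP and 136, 156 and 164 CPM in control. BNIP3, a receptor that marks mitochondria for mitophagy, had 101, 113 and 83.3 CPM in PS-MP and 99.3, 116 and 141 CPM in control. For both genes PS-MP replicates 1 and 2 lay within the range of the controls and PS-MP replicate 3 below every control. The related receptor gene BNIP3L averaged 116 ± 2.1 CPM in PS-MP and 122 ± 8.91 CPM in control. The histone demethylase gene KDM3A averaged 49.4 ± 5.25 CPM in PS-MP and 55.4 ± 3.04 CPM in control. ANKRD37 was close to the detection floor, with 0.695, 1.01 and 0.212 CPM in PS-MP and 0.942, 0.823 and 1.19 CPM in control, PS-MP replicate 3 again being below every control, and it overlaps UFSP2 on the opposite strand over 35.2% of its exonic bases.

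RefSeq promoters (GRCh38.p14) were matched for 35 of the 40 genes, and the 250 bases before each start were searched on both strands for the HIF cores ACGTG and GCGTG. The core ACGTG also lies within the E-box CACGTG, which other factors bind, and such a site is counted on both strands. The core ACGTG was present in 15 of the 35 (42.9%), against 18.7% of 27305 promoters in the table, and GCGTG in 13 of the 35 (37.1%), against 31.9%. Either core was present in 6 of 6 matched HIF targets outside glycolysis and in 9 of 15 glycolytic enzymes, against 43.1% of all promoters. The genes were chosen as known members of the hypoxia and glycolysis pathways, HIF targets among them, so these shares describe the list and are not evidence of binding. The 5 sequences below are shown for the gene that passed the test, the targets with the largest differences in each direction, and 2 abundant genes, of glycolysis and of lactate formation, that were low in PS-MP replicate 3. Each is the 250 bases before the RefSeq start, 5′ to 3′ on the plus strand, with the cores in capitals.
EPAS1, chr2:46297157-46297406: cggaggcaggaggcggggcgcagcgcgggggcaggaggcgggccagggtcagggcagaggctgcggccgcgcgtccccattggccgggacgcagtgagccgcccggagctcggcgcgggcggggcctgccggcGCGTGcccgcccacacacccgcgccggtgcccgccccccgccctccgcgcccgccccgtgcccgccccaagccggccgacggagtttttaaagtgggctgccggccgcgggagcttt
CA9, chr9:35673678-35673927: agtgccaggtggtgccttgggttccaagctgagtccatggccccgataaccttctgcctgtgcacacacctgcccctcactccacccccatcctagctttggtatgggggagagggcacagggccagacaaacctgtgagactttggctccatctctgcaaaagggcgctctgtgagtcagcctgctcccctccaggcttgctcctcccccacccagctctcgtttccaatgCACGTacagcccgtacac
ANGPTL4, chr19:8363905-8364154: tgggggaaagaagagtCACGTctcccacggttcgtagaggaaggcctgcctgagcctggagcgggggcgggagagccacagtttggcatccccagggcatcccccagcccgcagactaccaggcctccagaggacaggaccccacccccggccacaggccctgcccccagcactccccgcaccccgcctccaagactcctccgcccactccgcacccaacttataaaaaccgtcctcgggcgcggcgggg
PGK1, chrX:78103998-78104247: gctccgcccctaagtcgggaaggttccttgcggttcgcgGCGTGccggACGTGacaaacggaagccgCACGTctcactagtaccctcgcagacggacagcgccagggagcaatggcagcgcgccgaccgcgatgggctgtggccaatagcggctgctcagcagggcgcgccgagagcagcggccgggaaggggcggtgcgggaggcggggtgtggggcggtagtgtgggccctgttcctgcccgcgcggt
LDHA, chr11:18394313-18394562: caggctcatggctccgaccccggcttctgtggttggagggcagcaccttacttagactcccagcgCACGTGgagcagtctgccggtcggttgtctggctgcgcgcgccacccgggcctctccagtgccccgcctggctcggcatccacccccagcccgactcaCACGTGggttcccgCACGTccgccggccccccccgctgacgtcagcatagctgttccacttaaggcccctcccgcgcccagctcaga

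The CA9 window held 1 ACGTG core, read on the minus strand, whose nearest base lies 14 bases before the start, and the ANGPTL4 window held 1 at 230 bases before it. LDHA had 5 matches, of which the 2 E-boxes account for 4. PGK1 had 2 ACGTG matches and 1 GCGTG within 179 to 207 bases of its start. EPAS1 held GCGTG once, 113 bases before a RefSeq start that lies inside the deposited gene span. The RefSeq starts used for ANGPTL4 and PGK1 also lie well inside the deposited spans, which begin at 8363289 and 77910739. CA9 and ANGPTL4, with 1 ACGTG match each, thus had log2 fold changes of opposite sign.

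None of the 3 transporters passed the test at an adjusted p of 0.05, nor had any of them an unadjusted p below 0.05 with edgeR, DESeq2 or limma-voom. Of all tested genes, 24.0% had such a p with edgeR. SLC2A1, the basal glucose importer of most cells, had 64.5, 68.4 and 37.9 CPM in PS-MP and 66.5, 67.4 and 61.9 CPM in control. SLC2A3, a glucose importer of high affinity, had 63.7, 68.4 and 40.1 CPM in PS-MP and 59.5, 64.2 and 72.3 CPM in control. For both importers PS-MP replicates 1 and 2 were at or near the control level and PS-MP replicate 3 was the lowest library. SLC16A3, which exports lactate, was instead highest in the replicate 3 libraries of both groups, with 27.5, 30.3 and 40.9 CPM in PS-MP and 26.7, 30.4 and 45.6 CPM in control. Per length, SLC2A1 made up 56.2% ± 0.901 of the transcripts of the 2 importers in PS-MP and 56.6% ± 3.42 in control (SD, n = 3 each).

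The 15 enzymes of the glycolytic steps together took 17397, 18908 and 12894 CPM in PS-MP and 16056, 16607 and 18142 CPM in control. None passed the test at an adjusted p of 0.05 with edgeR, DESeq2 or limma-voom. At an unadjusted p below 0.05 edgeR and limma-voom counted 0 and DESeq2 1. With edgeR and with limma-voom, 24.0% of all tested genes had such a p. The log2 fold changes ran from −0.38 (HK2) to 0.57 (ALDOC), with 5 positive and 10 negative and a median of −0.08. At the entry step, HK1, the constitutive hexokinase, had 282, 286 and 281 CPM in PS-MP and 252, 252 and 240.2 CPM in control, all PS-MP libraries being above all controls (log2 fold change 0.19 ± 0.09, edgeR's adjusted p = 0.226). HK2, the hypoxia-inducible hexokinase, averaged 5.44 ± 1.01 CPM in PS-MP and 7.04 ± 1.6 CPM in control. HK1 made up 98% of the transcripts of these 2 hexokinases per length in PS-MP and 97.1% in control.

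GPI, which makes fructose phosphate, had 684, 664 and 457 CPM in PS-MP and 629.9, 699 and 698 CPM in control. PFKP, the platelet-type phosphofructokinase, had 337, 352 and 264 CPM in PS-MP and 297, 306 and 391 CPM in control. PFKP was the main of the 3 phosphofructokinase genes per length, with 74.9% ± 3.72 in PS-MP and 76.8% ± 2.02 in control. PFKM, the muscle-type form, had 112, 109.7 and 119.9 CPM in PS-MP and 107, 102 and 107 CPM in control, which did not overlap but gave an adjusted p of 0.496 with edgeR. PFKL, the liver-type form, averaged 55.4 ± 1.12 CPM in PS-MP and 54.7 ± 4.71 CPM in control. PFKM shares 8.58% of its exonic bases with SENP1 on the opposite strand, which was called lower in PS-MP (log2 fold change −0.49, edgeR's adjusted p = 0.0199).

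Aldolase splits fructose bisphosphate. ALDOC, the brain-type aldolase, had 29.1, 33.3 and 14.4 CPM in PS-MP and 14.4, 22.4 and 15.0 CPM in control. As for ANGPTL4, PS-MP replicates 1 and 2 were above every control and PS-MP replicate 3 was not (log2 fold change 0.57 ± 0.27, edgeR's adjusted p = 0.239, and 0.85 with adjusted p = 0.0203 without PS-MP replicate 3). ALDOA, the form that most cells use, had only 849 counts over all 6 libraries, which gave 1.70 CPM per kb of exon in PS-MP and 2.05 in control, under the 8.75 CPM per kb of ALDOC in PS-MP and 5.89 in control. ALDOA shares 42.3% of its exonic bases with the same-strand gene ENSG00000285043, which had 80 counts. How reads that fall in more than 1 gene were treated is not given in the sources used here, so the level of ALDOA is uncertain.

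The later steps held the most abundant transcripts. TPI1, which interconverts the triose phosphates, had 907, 1069 and 668 CPM in PS-MP and 919, 935 and 1216 CPM in control. GAPDH, which reduces NAD+ at the oxidative step, had 5004, 5797 and 3661 CPM in PS-MP and 4196, 4356 and 4916 CPM in control. PGK1, which forms ATP from bisphosphoglycerate, had 1549, 1862 and 1069 CPM in PS-MP and 1350.4, 1517 and 1871 CPM in control. For these 3 genes PS-MP replicate 3 was the lowest library and control replicate 3 the highest control. PGAM1, the phosphoglycerate mutase, had 468, 505 and 379 CPM in PS-MP and 464, 490.3 and 611 CPM in control. ENO1, the main enolase, had 3619, 3819 and 2758 CPM in PS-MP and 3706, 3697 and 3699 CPM in control, so that the 3 controls lay within an SD of 5.18 CPM while PS-MP spread over an SD of 564 CPM. PKM, the pyruvate kinase that yields pyruvate, had 4269, 4254 and 3077 CPM in PS-MP and 3979, 4076 and 4214 CPM in control. In all 6 of these genes PS-MP replicate 3 was the lowest library, and their log2 fold changes over all libraries lay between −0.22 (TPI1) and 0.10 (GAPDH), with edgeR's adjusted p of 0.388 or more. ENO2, the neuronal enolase, averaged 79.4 ± 9.68 CPM in PS-MP and 83.7 ± 5.57 CPM in control.

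Per kb of exon, GAPDH was the most abundant of the 40 genes, with 1617 CPM per kb in PS-MP and 1506 in control, followed by ENO1 with 644 in PS-MP and 701 in control and LDHA with 548.8 in PS-MP and 632 in control. PKM, TPI1 and PGK1 came next with 451, 326 and 271 CPM per kb in PS-MP and 477, 379 and 287 in control. Rows named as pseudogenes of TPI1 held 1.2% of the counts of TPI1, and the 65 such rows of GAPDH held 0.16% of its counts.

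Of the genes that branch from or regulate the pathway, none passed edgeR's test at an adjusted p of 0.05. PFKFB3 and PDK1 were lower at an unadjusted p below 0.05, which 24.0% of all tested genes reached with edgeR. PFKFB3, the kinase-dominant regulator that makes the activator of phosphofructokinase, had 225, 229.6 and 186 CPM in PS-MP and 240.1, 252 and 268 CPM in control. PDK1, a HIF target that inhibits pyruvate dehydrogenase, had 13.8, 14.3 and 13.3 CPM in PS-MP and 15.7, 16.0 and 21.9 CPM in control. Both lay below every control, as did 15.4% of all tested genes. The log2 fold changes were −0.25 ± 0.11 (edgeR's adjusted p = 0.198) for PFKFB3 and −0.37 ± 0.15 (adjusted p = 0.166) for PDK1. PFKFB4 averaged 8.77 ± 2.09 CPM in PS-MP and 10.4 ± 1.64 CPM in control. PDK3, another of these kinases, averaged 38.4 ± 3.99 CPM in PS-MP and 42.1 ± 4.23 CPM in control, and was called lower without both replicate 3 libraries (−0.30 ± 0.08, adjusted p = 0.0222).

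LDHA, the subunit that favours lactate formation, had 3939, 4035 and 2249.9 CPM in PS-MP and 3693, 3821 and 4264 CPM in control. PS-MP replicate 3 was again the lowest library, and the log2 fold change was −0.20 ± 0.19 (edgeR's adjusted p = 0.563). LDHB, the subunit that favours pyruvate, had 43.1, 56.0 and 45.5 CPM in PS-MP and 42.3, 40.8 and 36.9 CPM in control, without overlap (0.27 ± 0.12, edgeR's adjusted p = 0.213). LDHA made up 97.0% ± 0.923 of the lactate dehydrogenase transcripts per length in PS-MP and 97.9% ± 0.289 in control. LDHB shares 33.4% of its exonic bases with a same-strand gene, ENSG00000285854, which had 12 counts in all. As for ALDOA, the level of LDHB is therefore uncertain, and so is the share of LDHA.

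PS-MP replicate 3 was the lowest of the 6 libraries in 25 of the 40 genes (62.5%), against 23.9% of all tested genes. It lay below the mean of PS-MP replicates 1 and 2 in 32 genes (80%, against 50.5% of all tested genes), with a median difference of −0.35 on the log2 scale, and by more than 0.5 in 14 genes (35%, against 7.85%). Control replicate 3 lay the other way. It was the highest of the 6 libraries in 18 genes (45%, against 25.2% of all tested genes) and above the mean of controls 1 and 2 in 30 genes (75%, against 49.7%), with a median difference of 0.17. The 7 genes with the largest drop in PS-MP replicate 3 were ANKRD37 (−1.57, from counts near the floor), ANGPTL4 (−1.34), CA9 (−1.22), ALDOC (−1.11), ADM (−0.91), LDHA (−0.83) and SLC2A1 (−0.81). HIF1A mRNA lay the other way, being 0.75 higher in PS-MP replicate 3 than in PS-MP replicates 1 and 2 and differing by −0.31 in control replicate 3. The share of all counts taken by the 40 genes was 2.36%, 2.44% and 1.76% in PS-MP and 2.23%, 2.37% and 2.60% in control. Mitochondrially encoded transcripts took 16.1%, 15.6% and 16.1% in PS-MP and 17.8%, 16.0% and 12.4% in control, so control replicate 3 stood apart in this share and PS-MP replicate 3 did not, and its part in the result was not tested.

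Without both replicate 3 libraries, edgeR called 10 of the 40 genes (25%), 7 higher and 3 lower, against 26.6% of 15503 tested genes, 13.5% higher and 13.1% lower. The share among the hypoxia and glycolysis genes was therefore near that of all genes. The libraries left out were picked by values of these same genes, so the calls describe the remaining libraries and are not independent evidence. The genes called higher were EPAS1 (log2 fold change 0.47), VEGFA (0.36), ADM (0.37), ANGPTL4 (1.05), PFKP (0.19), ALDOC (0.74) and GAPDH (0.33), and those called lower were HIF1A (−0.54), CA9 (−0.55) and PDK3 (−0.30). Without PS-MP replicate 3 alone, 3 genes were called higher (EPAS1, ANGPTL4 and ALDOC) and none lower, where 10.8% of 15752 tested genes were called (885 higher, 811 lower).

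**Figure D3:**
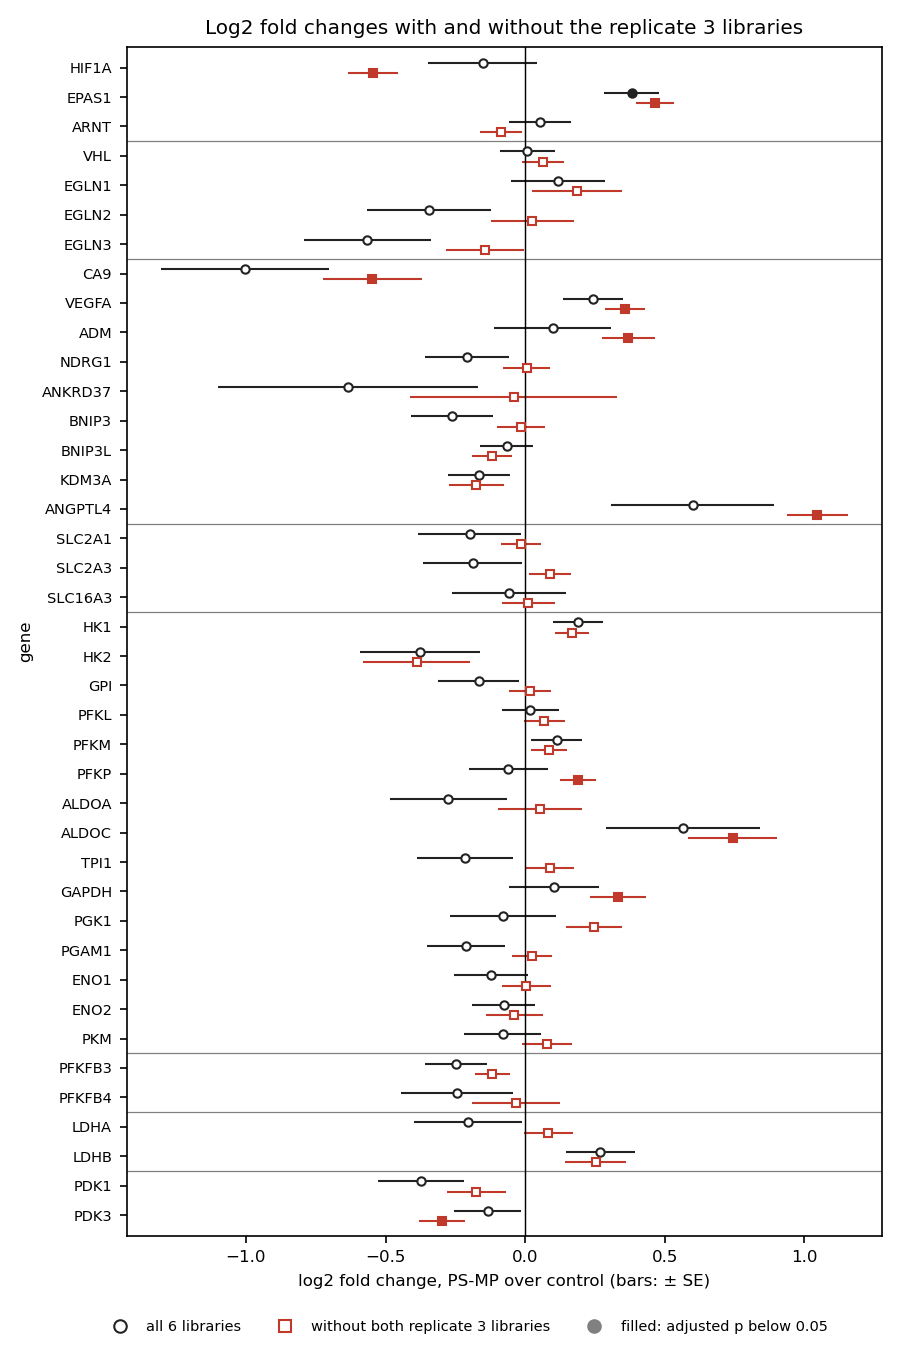
Log2 fold change of PS-MP over control with its SE for each of the 40 genes, from all 6 libraries (circles) and without both replicate 3 libraries (squares), filled where edgeR's adjusted p was below 0.05. EPAS1 is filled in both, 9 further genes are filled only among the squares, and HIF1A moves left while most glycolytic genes move right.

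Glycolytic enzymes were set against HIF targets outside glycolysis by the median log2 fold change of each group, which was −0.08 for the 15 enzymes and −0.17 for the 9 targets, a difference of 0.09. Per library, the median deviation from the control mean was 0.02, 0.06 and −0.32 for the enzymes in PS-MP and −0.11, −0.02 and 0.13 in control. For the HIF targets it was −0.06, 0.04 and −0.50 in PS-MP and −0.11, 0.06 and 0.17 in control. The 2 groups of genes thus moved together from library to library, with both at their lowest in PS-MP replicate 3. The enzymes' median minus that of the targets was 0.079, 0.015 and 0.18 in PS-MP and 0.0012, −0.077 and −0.04 in control, which did not overlap, and no test was made of this difference. The median log2 fold change of the enzymes minus that of the targets was 0.085 with all libraries. Leaving out single libraries gave −0.070 for PS-MP replicate 2, 0.011 for control replicate 2, 0.050 for control replicate 1, and at most 0.13. Without both replicate 3 libraries, 3 of the 15 enzymes were called higher and none lower (median 0.08), against 3 of the 9 targets higher and 1 lower (median −0.01). These calls cover 20% of the enzymes and 44.4% of the targets, beside 26.6% of all tested genes (13.5% higher, 13.1% lower).

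**Figure D4:**
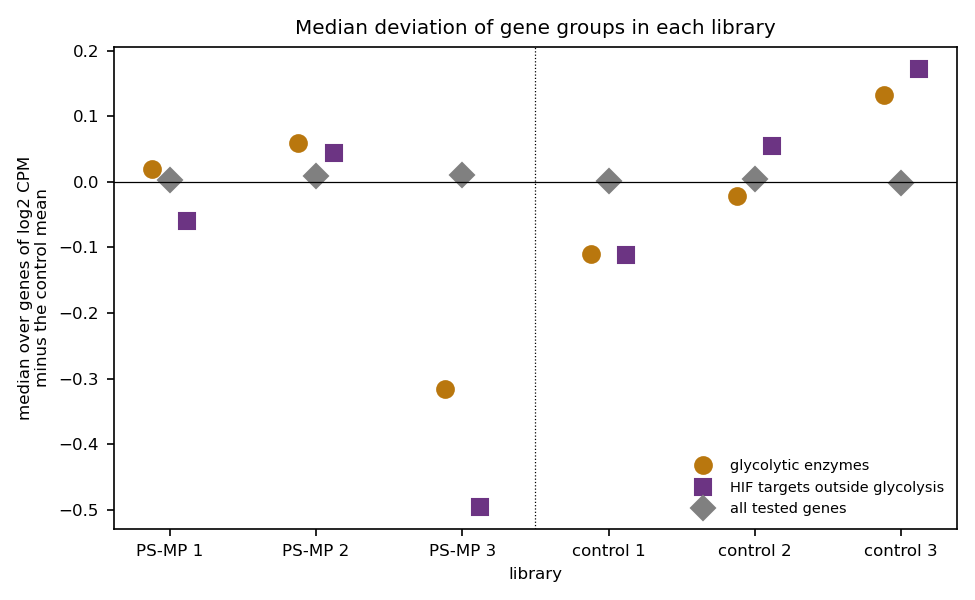
Median over genes of log2 CPM minus the control mean in each library (PS-MP on the left), for the 15 glycolytic enzymes (circles), the 9 HIF targets outside glycolysis (squares) and all tested genes (diamonds). Both gene groups fall to −0.32 and −0.50 in PS-MP 3 and reach 0.13 and 0.17 in control 3, while the median of all tested genes lies at 0.0097 in PS-MP 3 and −0.0018 in control 3.

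Other genes of these pathways were counted in the same fit. Of 26 tested further HIF targets, 3 were higher and 1 lower, beside 4.91% and 4.65% of all tested genes. Their median log2 fold change was 0.085. By library their median deviation from the control mean was 0.047, 0.14 and −0.063 in PS-MP and −0.056, 0.041 and 0.029 in control. The fall in PS-MP replicate 3 was thus smaller than for the HIF targets described above. CA12, a carbonic anhydrase related to CA9, had 829, 835 and 859 CPM in PS-MP and 550.0, 569.8 and 524 CPM in control, with a log2 fold change of 0.62 (edgeR's adjusted p = 0.00219). CA9 and CA12 thus had fold changes of opposite sign, and PS-MP replicate 3 did not stand apart for CA12. KDM4B, a histone demethylase named after its value was seen, was also higher (0.43, adjusted p = 0.0314), and ZNF395 was lower (−0.55, adjusted p = 0.0165).

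Of 12 tested further HIF pathway components, 1 was higher, OS9, a gene of endoplasmic reticulum quality control whose protein has also been reported to bind HIF1A, with a log2 fold change of 0.35 (edgeR's adjusted p = 0.0472). Of 21 tested further genes of glycolysis and pyruvate use, 1 was higher. This was TIGAR, a p53-regulated phosphatase that lowers the activator of phosphofructokinase, with 40.9, 33.7 and 38.8 CPM in PS-MP and 19.4, 17.6 and 14.2 CPM in control. Its groups did not overlap, and its log2 fold change was 1.15 (adjusted p = 0.000505). The median deviation of these 21 genes was −0.0066, 0.036 and −0.0068 in PS-MP and −0.012, −0.035 and 0.089 in control. None of 7 tested pentose phosphate genes and none of 9 tested genes of gluconeogenesis and glycogen passed edgeR's test, where an unadjusted p below 0.05 was reached by 2 higher and 1 lower (42.9%) and by 3 higher genes (33.3%), against 24.0% of all tested genes. DESeq2 called 1 pentose phosphate gene lower and none of the others, where it called 10.5% of 15727 genes.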

How the data were processed

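RNA was measured by poly(A)-selected, paired-end RNA-seq of 6 A549 libraries. The authors deposited raw whole-number counts, with a column for each library and a row for each Ensembl gene, in a table named for featureCounts. The submitters' processing notes list build GRCh38 and the tools fastp, HISAT2, StringTie, RSEM and DESeq2, without versions or roles. Strand setting, annotation release and the treatment of reads in several genes are not given in the sources used here. Tests used edgeR 4.0.16 (R 4.3.3) on genes that passed filterByExpr, with TMM scaling and a two-sided, robust quasi-likelihood F test. Its p-values were adjusted by Benjamini-Hochberg over 15458 genes at 0.05, and the procedure was checked on simulated data. Every adjusted p comes from this test unless another tool is named, and the SE of a log2 fold change is its size over the root of F. Log2 CPM have a prior count of 2. Lengths are unions of exons in GENCODE 29, a choice made after the table was seen to hold none. Alternatives used DESeq2 1.42.0, limma 3.58.1, other scalings and filters, and left out libraries. The members, lists and named genes (called genes, genes whose groups do not overlap, HIF1A, the main enzyme of each step, and up to 3 called genes of each other list) were chosen with earlier results of these data known. Values of 1 called gene of these lists are not reported here.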

Additional observations from a re-analysis of the deposited data

How the results depend on the processing

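Of 640 member values under 16 alternatives, 582 kept their direction and side of the threshold. With the direction kept, 15 gained a call and 6 lost one (all EPAS1). The other 37 changed sign, among them PFKP without both replicate 3 libraries, which also gained a call. Over all genes 1478 were called (759 higher, 719 lower), 1396 (535 higher, 861 lower) with total counts as the only scaling, which moved the median of all genes by −0.06, 750 with the replicate number as a block, 4129 without both replicate 3 libraries, and 771 to 1696 when leaving out 1 library. Same-numbered libraries did not deviate together (correlations −0.095, −0.108 and −0.181), and none correlated best with its own number. Members called higher numbered 0 with total counts, 2 with no filter, 0 under the replicate block (EPAS1 with adjusted p = 0.13), 7 without both replicate 3 libraries and 0 to 3 when leaving out 1 library. Members called lower numbered 1 with total counts, 2 with no filter, 1 with DESeq2 and 3 without both replicate 3 libraries. The share of all tested genes called was 9.03% with total counts, 6.08% of 33003 with no filter and 10.5% of 15727 with DESeq2. The glycolytic median minus the HIF target median ran from −0.070 to 0.13 when leaving out 1 library. With total counts, the log2 fold changes of ARNT (−0.012), VHL (−0.059) and PFKL (−0.048) changed sign. Without both replicate 3 libraries, the sign changed for ARNT (−0.087), EGLN2 (0.026), NDRG1 (0.0049), SLC2A3 (0.089), SLC16A3 (0.011), GPI (0.017), PFKP (0.19), ALDOA (0.053), TPI1 (0.088), PGK1 (0.25), PGAM1 (0.024), ENO1 (0.0034), PKM (0.078) and LDHA (0.082). Leaving out 1 library gave ranges that crossed 0 for HIF1A (−0.44 to 0.018), ARNT (−0.023 to 0.11), VHL (−0.031 to 0.050), ADM (−0.11 to 0.35), SLC2A1 (−0.36 to 0.027), SLC2A3 (−0.34 to 0.016), SLC16A3 (−0.24 to 0.20), PFKL (−0.044 to 0.086), PFKP (−0.14 to 0.074), GAPDH (−0.055 to 0.27), PGK1 (−0.28 to 0.11), ENO1 (−0.22 to 0.0086), PKM (−0.16 to 0.061) and LDHA (−0.35 to 0.024). The cause of these changes was not tested. With 3 libraries a group, differences smaller than the spread between libraries were not detectable, and ANKRD37 at 0.212 to 1.19 CPM is limited by depth.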
